A study of Homo sapiens with 24 samples.

Results

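The 10 inflammatory mediators described here are the CXC chemokines CXCL1, CXCL2, CXCL3, CXCL8 and CXCL16, the CC chemokines CCL5 and CCL20, the interleukin-1 cytokines IL1A and IL1B, and the growth factor CSF2. They were chosen by name, and all 10 had a row among the 59609 gene symbols of the count table. Gene expression was measured by 3′ mRNA sequencing, which reads each transcript near its poly(A) tail, in 2 human breast cancer cell lines that lack the oestrogen receptor. MDA-MB-231 is a mesenchymal-like, basal type line kept in RPMI-1640 with serum, and MDA-MB-453 is a luminal line kept in DMEM with serum. Cells of both lines were labelled wild-type and received DMSO, abemaciclib (a CDK4/6 inhibitor, 500 nM), fulvestrant (an oestrogen receptor degrader, 5 nM) or both drugs for 5 days, with 3 libraries in each of the 8 groups. Each line stands alone for its subtype, and the lines were grown in different media, so that line and medium cannot be told apart.

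These mediators are usually made together. Tumour necrosis factor, microbial products or interleukin-1 itself activate the IKK kinases, which release NF-κB dimers from their IκB inhibitors, and NF-κB then binds short κB sites close to the start of CXCL1, CXCL2, CXCL3, CXCL8 and similar genes. CXCL1, CXCL2, CXCL3 and CXCL8 draw neutrophils through the receptors CXCR1 and CXCR2. IL-1α and IL-1β signal through IL1R1 with its partner IL1RAP and set off the same NF-κB response in the cell that makes them or in its neighbours. The messenger RNAs of many of these mediators are short-lived, because AU-rich elements in the 3′ untranslated region bind decay factors of the ZFP36 family. CXCL16 differs from the rest: it is made as a membrane-bound protein that ADAM10 sheds from the cell surface, and its receptor is CXCR6.

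The 24 libraries held 2873558 to 4158762 counts. At this depth 3 counts, the upper limit that a count of 0 allows, corresponded to 0.721 to 1.04 CPM (the count scaled to the library total) in a single library and to 0.255 to 0.300 CPM in a group of 3. Most of the line markers separated the lines: VIM, a mesenchymal filament, had 4592 to 5685 counts in MDA-MB-231 DMSO libraries and 0 in those of MDA-MB-453, whereas EPCAM, an epithelial adhesion protein, had 0 to 6 and 1291 to 1421. The epithelial gene CDH1 did not (10.5 against 9.67 CPM, log2 difference −0.05, SE 0.32, adjusted p = 0.899, edgeR). The epithelial keratins KRT8 and KRT18 were lower in MDA-MB-231 but present, at 100 and 308 CPM against 283 and 781 CPM. ESR1, the oestrogen receptor gene, had 0 counts in all 6 DMSO libraries. Among the treated groups it had 5 counts in 1 MDA-MB-231 abemaciclib library, 3 in 1 MDA-MB-231 combination library and 8 in 1 MDA-MB-453 abemaciclib library. All other libraries had 0. Of 16 immune cell markers 9 had 0 counts in every library; in MDA-MB-231 the summed level of the 16 ranged from 3.94 to 5.18 CPM with DMSO, against 7.10 to 17.0 CPM with abemaciclib. CD68, a lysosomal protein, made up most of it, with 12 to 15 counts under DMSO against 25 to 55. Fibroblast and endothelial markers, 9 in all with 2 at 0 throughout, summed to 1.8 to 8.47 CPM over the MDA-MB-231 libraries. In MDA-MB-453 they summed to 33.9 to 44 CPM with DMSO, 16.8 to 20.0 with abemaciclib, 34.4 to 57.8 with fulvestrant and 20.5 to 30.7 with both drugs, mostly through COL1A1, a collagen, which fell under abemaciclib (log2 fold change −1.02, SE 0.20, adjusted p = 8.25e-05). In MDA-MB-231, mitochondrial transcripts took 8.83% ± 0.213 of counts with DMSO, 12.2% ± 1.05 with abemaciclib and 13.7% ± 0.319 with both drugs (SD, n = 3). The MDA-MB-453 shares were 15.2% ± 0.650, 23.8% ± 1.91 and 21.2% ± 0.381.

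A set of 4 mediators share a κB-type letter sequence close to their start, which is shown because it is the feature by which they are usually grouped and because CXCL1, CXCL2 and CXCL3 are near copies of each other. RefSeq promoters (GRCh38.p14, 250 bases before to 50 after the start) were found for 8 of the 10 genes, all except CXCL16 and CCL5. The 9 letters GGAATTTCC, searched on both strands, were present in 4 of the 8 genes and in 0.461% of all 35116 promoters (162). The match is capitalised in these 30-base windows, written 5′ to 3′ on the strand of each gene:

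CXCL1 (chr4:73869305-73869334, plus strand): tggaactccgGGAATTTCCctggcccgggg

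CXCL2 (chr4:74099253-74099282, minus strand): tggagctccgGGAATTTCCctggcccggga

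CXCL3 (chr4:74038748-74038777, minus strand): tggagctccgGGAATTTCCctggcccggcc

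CXCL8 (chr4:73740468-73740497, plus strand): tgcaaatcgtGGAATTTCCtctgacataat

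The match began 78 bases before the RefSeq start of CXCL1 and CXCL3, 77 before that of CXCL2 and 91 before that of CXCL8. Between CXCL1, CXCL2 and CXCL3 the windows differed at 2 or 3 of the 30 positions, and CXCL8 differed from each of them at 13 or 14. All 4 genes lie on chromosome 4 in the GENCODE v44 annotation of GRCh38: CXCL8 at chr4:73740519-73743716, CXCL1 at chr4:73869393-73871308, CXCL3 at chr4:74036589-74038807 and CXCL2 at chr4:74097040-74099196. GENCODE places the outermost start of CXCL3 and CXCL8 further upstream than RefSeq does, so that the CXCL3 window lies inside the GENCODE gene and the CXCL8 match is closer to the GENCODE start. The near identity extended into part of the transcripts. Of the 401 windows of 100 bases (the read length) in the last 500 bases of CXCL1, 66 (16.5%) were within 3 mismatches of CXCL2, and none of the windows of CXCL3 was that close to either. How the counting treated reads with several matches is not given in the sources used here, so counts of CXCL1 and CXCL2 may be split between them.

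Under DMSO the mediators were close to or below the limit of detection in both lines, with CXCL16 in MDA-MB-453 as the one exception. Over all 24 libraries they took 985 of 85328999 counts, and 863 of the 985 were CXCL16 counts in MDA-MB-453. IL1A (chr2:112773925-112784493), which is stored in cells and acts as an alarm signal, and CSF2 (chr5:132073789-132076170), which drives granulocyte and macrophage growth, had 0 counts in every library. A count of 0 over all 24 libraries allows up to 0.0352 CPM. IL1B (chr2:112829751-112836816), secreted after inflammasome cleavage, had 4 counts in all, CCL20 (chr2:227805739-227817564), which attracts CCR6-bearing lymphocytes, had 3, and both were seen in MDA-MB-231 alone. CCL5 (chr17:35871491-35880793), a T cell and monocyte attractant, had 2 counts in MDA-MB-231 against 10 in MDA-MB-453. CXCL1 had 7, CXCL2 had 16, CXCL3 had 30 and CXCL8 had 34. The count map shows that the sum over the 10 genes stayed between 2 and 18 in each MDA-MB-231 library.

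**Figure D1:**
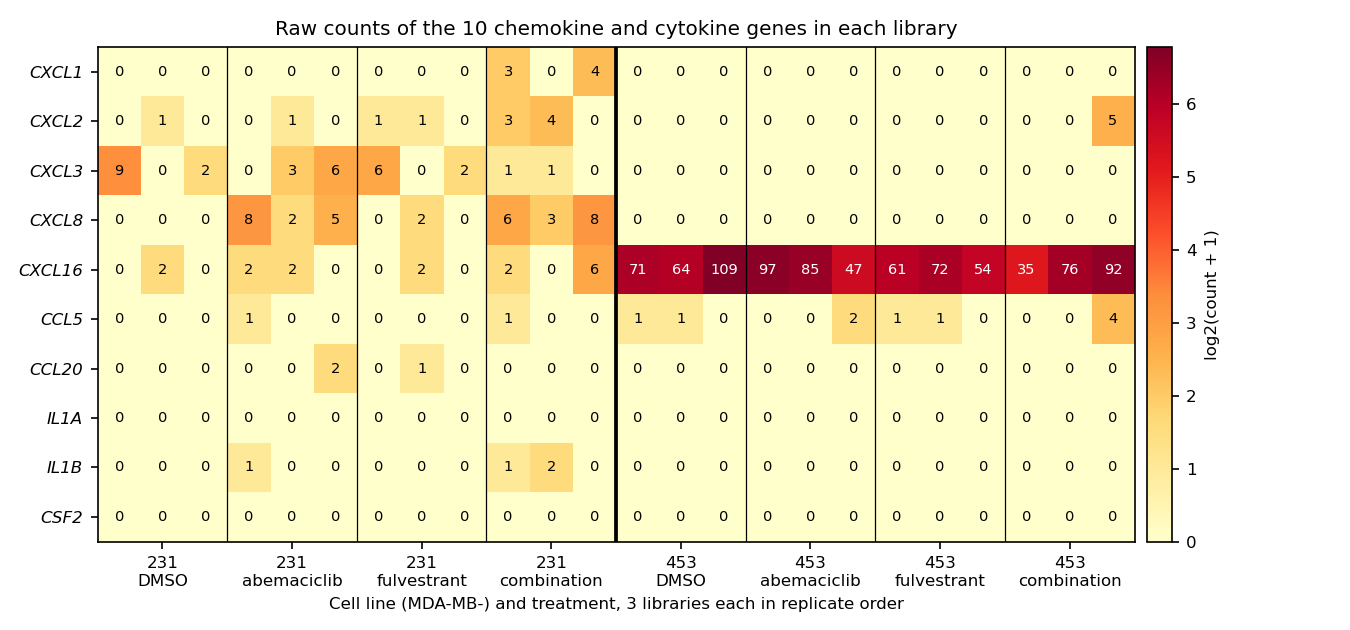
Raw counts of each of the 10 genes (rows) in each of the 24 libraries (columns, 3 per group in replicate order); the number in each cell is the count and the colour its log2(count + 1). CXCL16 fills the 12 MDA-MB-453 libraries with 35 to 109 counts, CXCL8 appears in the 6 MDA-MB-231 libraries given abemaciclib, and IL1A and CSF2 are 0 throughout.

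The first question was whether abemaciclib, alone or with fulvestrant, raised these mediators in MDA-MB-231. CXCL8, the major neutrophil chemokine of epithelial cells, was the gene with the clearest pattern. It had 0, 0 and 0 counts in the DMSO libraries and 8, 2 and 5 in the abemaciclib libraries, or 2.27, 0.608 and 1.37 CPM. With both drugs it had 6, 3 and 8 counts, or 1.62, 0.721 and 2.06 CPM, and with fulvestrant alone 0, 2 and 0. Every library that received abemaciclib therefore lay above every DMSO library, and the lowest of them, with 2 counts, equalled the highest fulvestrant library in counts. Pooled over 3 libraries, the level was 1.43 CPM (95% exact Poisson interval 0.802 to 2.36) under abemaciclib and 1.45 CPM (0.843 to 2.32) with both drugs. Against the limit of 3 counts over the DMSO group, CXCL8 was at least 4.78-fold higher with abemaciclib and at least 4.83-fold higher with both drugs. Such limits, here and below, take the higher count as observed, without its counting error. Against the 2 counts of the fulvestrant group the ratios were 7.46 (95% counting interval 1.73 to 67.2) and 7.53 (1.79 to 67.2). These intervals cover counting error only, since reads without molecular identifiers are not independent molecules.

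CXCL8 stayed below the low-count filter of the main test, which needed about 2.86 CPM in MDA-MB-231, and so did the other 9 mediators, so that 0 of the 10 were tested in that line. Without the filter, 8 of the 10 could be tested, and CXCL8 alone passed, with an adjusted p of 0.0242 for abemaciclib and 0.0211 for both drugs (edgeR quasi-likelihood test), and 0.0218 and 0.0187 by DESeq2. In that unfiltered test 16.9% and 17.7% of 21397 genes passed. The call was not stable: leaving out 1 library gave adjusted p values of 0.0242 to 0.107 for abemaciclib and 0.0234 to 0.0747 for both drugs, and leaving out any of the 3 DMSO libraries ended both calls, as did leaving out abemaciclib replicate 1 for abemaciclib and combination replicate 1 or 3 for both drugs. An exact permutation test of 3 against 3 libraries gave p = 0.1 for each (two-sided), the smallest p that this design allows. Both comparisons share the 3 DMSO libraries. Among the 21397 genes with a count in the line, 13.4% had every abemaciclib library above every DMSO library and 14.1% every combination library. Of the 4358 genes with 0 counts under DMSO, 3.85% had a count in all 3 abemaciclib libraries and 4.41% in all 3 combination libraries. The CXCL8 counts moved together with the mitochondrial share given above, with CD68, and in the combination with deeper libraries (3710834 to 4158762 counts against 3280637 to 3424534 under DMSO). Their part in the result was not tested. In bulk RNA, fewer cells that express a gene and less of its RNA per cell cannot be told apart.

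**Figure D2:**
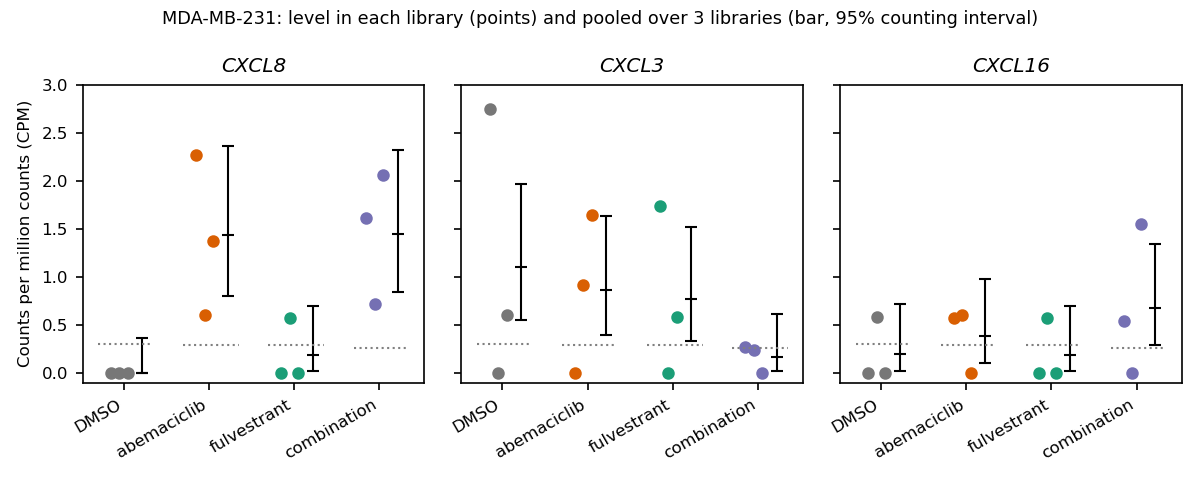
CPM of CXCL8, CXCL3 and CXCL16 in MDA-MB-231: points are single libraries, the bar is the pooled level of the 3 libraries with its 95% Poisson interval, and the dotted line is the level of 3 counts over the group. CXCL8 is 0 in the 3 DMSO libraries and 0.608 to 2.27 CPM in the 6 libraries with abemaciclib, whereas the groups overlap for CXCL3 and CXCL16.

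The other CXCR2 ligands did not share that pattern. CXCL3 had 9, 0 and 2 counts under DMSO, 0, 3 and 6 under abemaciclib, 6, 0 and 2 under fulvestrant and 1, 1 and 0 with both drugs. Its groups overlapped throughout, and the pooled ratio to DMSO was 0.782 (95% counting interval 0.287 to 2.08) for abemaciclib and 0.155 (0.0167 to 0.709) for both drugs. The latter interval lies below 1 for counting error alone, but DMSO replicate 1 held 9 of the 11 DMSO counts, and the unfiltered adjusted p was 0.300. CXCL1 was seen in the combination group only, with 3, 0 and 4 counts, at least 1.99-fold above DMSO on the 3-count limit. CXCL2 had 0, 1 and 0 counts under DMSO, 0, 1 and 0 under abemaciclib, 1, 1 and 0 under fulvestrant and 3, 4 and 0 with both drugs, a combination to DMSO ratio of 5.96 (0.766 to 269). For both genes 1 of the 3 combination libraries was at 0, so that the groups overlapped, and the exact permutation p for the combination was 0.4. CXCL16 in MDA-MB-231 had 0, 2 and 0 counts under DMSO, 2, 2 and 0 under abemaciclib, 0, 2 and 0 under fulvestrant and 2, 0 and 6 with both drugs. The remaining 3 seen in this line, IL1B, CCL20 and CCL5, reached at most 3 counts in any group, too few for a fold change.

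Fulvestrant, alone or added to abemaciclib, gave no mediator in MDA-MB-231 that passed a test, and the main test held none of the 10. With fulvestrant against DMSO, 0% of 11314 genes passed the main test, with 799 at an unadjusted p below 0.05; DESeq2 also called 0, and edgeR without the filter called 14 of 21397, none of them a mediator. For the combination against abemaciclib, 0.0265% of genes passed, and without the filter the adjusted p of the 8 mediators tested was at least 0.831. CXCL8 had 17 counts in the combination group and 15 in the abemaciclib group, a ratio of 1.01 (95% counting interval 0.474 to 2.17). At this depth the interval reaches from less than 0.5 to more than 2 times the abemaciclib level. CXCL3 had 2 counts against 9, a ratio of 0.198 (0.0208 to 0.956) that lies below 1 by counting error alone. CXCL1, with 7 counts against 0, was at least 2.08-fold higher on the 3-count limit, and CXCL2, with 7 against 1, had a ratio of 6.23 (0.801 to 281). The libraries of the 2 groups overlapped for all 3 of these genes.

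In MDA-MB-453 the picture rested on CXCL16 (chr17:4733533-4739928, minus strand). It had 71, 64 and 109 counts under DMSO, or 20.7, 17.5 and 30.2 CPM. Under abemaciclib it had 97, 85 and 47 counts (24.5, 23.3 and 14.1 CPM), under fulvestrant 61, 72 and 54 (16.4, 18.9 and 16.2 CPM) and with both drugs 35, 76 and 92 (12.2, 22.0 and 23.5 CPM). The 4 groups overlapped, and their means were 22.8 ± 6.59, 20.6 ± 5.68, 17.2 ± 1.49 and 19.2 ± 6.15 CPM (SD, n = 3). The log2 fold change against DMSO was −0.06 (SE 0.25, adjusted p = 0.873) for abemaciclib, −0.47 (SE 0.25, adjusted p = 0.411) for fulvestrant and −0.24 (SE 0.25, adjusted p = 0.480) for both drugs by edgeR's quasi-likelihood test. The combination differed from abemaciclib by −0.18 (SE 0.25, adjusted p = 0.813). Over the same 4 comparisons 36%, 1.41%, 37.6% and 2.46% of 11080 genes passed. By counting error alone, the ratio of abemaciclib to DMSO was 0.917 (95% interval 0.763 to 1.10). The order of the groups was set by single libraries: without DMSO replicate 3 the abemaciclib value was 0.21 and the combination value 0.03, and without abemaciclib replicate 3 the former was 0.13.

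**Figure D3:**
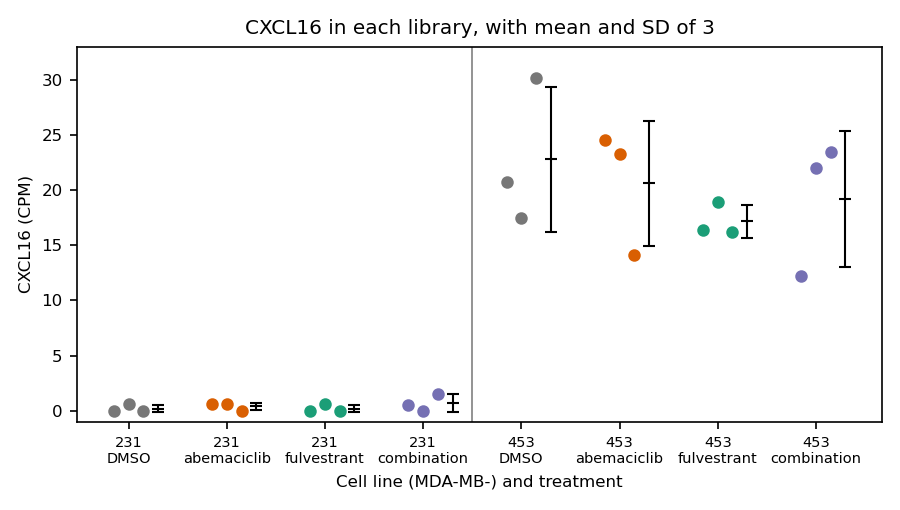
CXCL16 level in CPM (points, single libraries; bar, mean and SD of 3) in the 8 groups. The MDA-MB-453 libraries lie between 12.2 and 30.2 CPM with overlapping treatments, and the MDA-MB-231 libraries between 0 and 1.55 CPM.

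The other 9 mediators gave 15 counts in the 12 MDA-MB-453 libraries. CXCL1, CXCL3, CXCL8, CCL20, IL1A, IL1B and CSF2 had none. CXCL2 had 5 counts, all in combination replicate 3, which also held 4 of the 10 CCL5 counts; the other CCL5 counts were 1, 1 and 0 under DMSO, 0, 0 and 2 under abemaciclib and 1, 1 and 0 under fulvestrant. CXCL8 was thus at least 5.22-fold lower in MDA-MB-453 than in MDA-MB-231 under abemaciclib and at least 4.94-fold lower with both drugs, on the 3-count limit. Whether the CXCL8 response differed between the lines could not be judged with MDA-MB-453 at 0.

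The comparison of the untreated lines showed 1 large difference, in CXCL16. CXCL16 had 244 counts in the 3 MDA-MB-453 DMSO libraries and 2 in those of MDA-MB-231, a ratio of 114 (95% counting interval 31.3 to 949) and a log2 difference of 6.67 (SE 0.63, adjusted p = 4.43e-13, edgeR over 24 libraries), in a comparison in which 69.8% of 12750 genes passed. The higher level in MDA-MB-453 held under each treatment, with ratios of 54.8 (21.1 to 203) with abemaciclib, 89.7 (24.5 to 746) with fulvestrant and 29.1 (14.5 to 68.3) with both drugs. Of the 10 mediators CXCL16 alone entered the test of the abemaciclib effect between the lines, in which 20.7% of genes passed. With 2 and 4 counts in the MDA-MB-231 groups its estimate was too imprecise to compare the responses (difference of log2 fold changes −0.89, SE 1.32, adjusted p = 0.736). CXCL3 went the other way, with 11 counts in MDA-MB-231 against 0 in MDA-MB-453, at least 3.92-fold lower. Without the low-count filter its adjusted p was 0.0387 (37.1% of 24756 genes passed), but DESeq2 gave 0.125, and without MDA-MB-231 DMSO replicate 1 it was 0.306. CXCL16 exons share 76 bases with MED11 and 96 with ZMYND15 on the opposite strand, and whether the counting used the strand is not given in the sources used here.

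Genes whose level followed CXCL16 over the 12 MDA-MB-453 libraries were CYFIP1, an actin regulator (Pearson r = 0.849 of log2 CPM), and RTKN (r = 0.819), the highest of 7923 genes searched. These libraries share depth and treatment, and the values are a description only.

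The messenger RNAs carry the AU-rich pentamer ATTTA in unequal numbers. In the 3′ untranslated region of the reference transcript, CSF2 had 8 copies, CXCL2 10, CXCL8 9, CXCL3 7, CXCL1 and IL1B 6 each, IL1A 5, CCL20 3, CXCL16 1 and CCL5 none. Per kilobase of that region the copies numbered 25.2 in CSF2, 14.0 in CXCL2 and 7.19 in CXCL8, against a median of 1.67 over 18175 genes with at least 100 bases. By density 0.022% of those genes reached CSF2, whose region has 318 bases, and 3.33% reached CXCL8. By number of copies 17.8% of genes reached CSF2 and 15.0% CXCL8. CXCL16, the single mediator with a sizeable count, had 1.03 copies per kilobase, and 61.2% of genes had as many or more. The pentamer was counted on the transcript strand, overlapping copies included, and a match is not evidence of decay.

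The rest of the chemokine and interleukin-1 families was also mostly below detection. Of 37 other chemokine genes, 29 had 0 counts in MDA-MB-231 against 32 in MDA-MB-453, and 1 was tested in each line. In MDA-MB-231 that was CCL2, the monocyte chemokine, with 11, 8 and 13 counts under DMSO, 37, 18 and 29 under abemaciclib, 0, 3 and 14 under fulvestrant and 10, 37 and 22 with both drugs. All 3 abemaciclib libraries lay above the DMSO libraries, and the log2 fold change was 1.31 (SE 0.57, adjusted p = 0.0703 by edgeR, 0.0218 to 0.243 over the alternatives). In MDA-MB-453 it was CCL28, a mucosal chemokine, which changed by 0.02 on the log2 scale (SE 0.26, adjusted p = 0.964). CCL2 and CCL28 were chosen after their values were seen. Of 9 other interleukin-1 family cytokines, IL18 alone had counts in MDA-MB-231, and it rose clearly. IL18, which inflammasome caspases activate as they do IL-1β, had 54 to 69 counts in the DMSO libraries and 30 to 71 in those given fulvestrant, compared with 167 to 206 after abemaciclib and 187 to 211 after both drugs. Its log2 fold change was 1.54 (SE 0.20, adjusted p = 6.74e-08) for abemaciclib and 1.46 (SE 0.20, adjusted p = 1.51e-07) for both drugs. In MDA-MB-453 IL18 had 0 to 13 counts and was not tested. IL1RN, the natural antagonist of the interleukin-1 receptor, had 0 counts except 3 in the MDA-MB-453 fulvestrant group.

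Of 20 receptors for the mediators, 2 could be tested in MDA-MB-231, of which 1 rose, and 3 in MDA-MB-453, of which 2 fell under abemaciclib, beside 33.7% and 36% of all genes that passed in those lines. CXCR2 had 0 counts in all 24 libraries. IL1R1, the signalling receptor of IL-1α and IL-1β, stood at 245 ± 20.2 CPM in untreated MDA-MB-453 cells, against 1.08 ± 1.18 CPM in MDA-MB-231 (SD, n = 3), a log2 difference of 7.82 (SE 0.24, adjusted p = 1.71e-31). Its MDA-MB-453 level fell to 156 ± 15.9 CPM under abemaciclib (log2 fold change −0.57, SE 0.10, adjusted p = 9.15e-06) and to 182 ± 21.4 CPM with both drugs (−0.44, adjusted p = 0.000397). The COL1A1 level given above fell in the same libraries as IL1R1 and as PYCARD, MIF and STC1 below, and its part in those results was not tested. CXCR4, the receptor of CXCL12, also fell there, from 10 to 14 counts a library under DMSO to between 0 and 3 (−3.03, SE 0.84, adjusted p = 0.00378), and is named after its values were seen. IL1RAP, the co-receptor of IL1R1, was low in both lines, at 2.7 ± 0.302 CPM for MDA-MB-231 and, without drug, 1.70 ± 1.02 CPM for MDA-MB-453, and did not pass in MDA-MB-231 (−0.17, SE 0.64, adjusted p = 0.864). SIGIRR, an inhibitory relative of the receptor, rose in MDA-MB-231 from 4.92 ± 2.61 to 11.2 ± 3.4 CPM under abemaciclib (1.18, SE 0.39, adjusted p = 0.0151), a call lost without any 1 of 4 of the 6 libraries compared (adjusted p = 0.0532 to 0.0858).

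Among 17 genes of interleukin-1 maturation and chemokine shedding, 10 were tested in MDA-MB-231. Under abemaciclib 4 rose and none fell, with a median log2 fold change of 0.41; over all genes 33.7% passed, 16.9% higher and 16.9% lower, with a median of 0.00. The calpains, proteases that cleave the IL-1α precursor, were among those that rose: CAPN1 went from 32.5 ± 2.33 to 74.9 ± 1.48 CPM (log2 fold change 1.21, SE 0.15, adjusted p = 2.72e-08) and CAPN2 from 115 ± 8.23 to 217 ± 19.1 CPM (0.92, SE 0.11, adjusted p = 3.70e-09). With both drugs the list again had 4 higher and none lower, while 35.4% of all genes passed, 17% higher and 18.3% lower. In MDA-MB-453, 9 were tested, and 1 rose and 1 fell under abemaciclib, against 16.6% of all genes higher and 19.4% lower. CAPN2 rose there too (0.73, SE 0.12, adjusted p = 2.42e-06). PYCARD, the adaptor that joins inflammasome sensors to caspase-1, fell from 40.1 ± 5.60 to 10.9 ± 3.66 CPM (−1.79, SE 0.22, adjusted p = 5.84e-09), and to 12.8 ± 0.785 CPM with both drugs. It had 0 counts in all 12 MDA-MB-231 libraries.

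The list for interleukin-1 and Toll-like receptor signalling to IKK, which also holds CGAS and STING1 of cytosolic DNA sensing, changed in both directions. No kinase or adaptor that carries the receptor signal passed in MDA-MB-231 under abemaciclib, where the calls were TOLLIP, STING1 and CGAS. Of 16 listed genes tested in MDA-MB-231, 2 rose and 1 fell under abemaciclib (median 0.21), and of 14 in MDA-MB-453, 2 rose and 2 fell (median 0.20). TOLLIP, a brake on interleukin-1 receptor signalling, rose in both, by 0.62 (SE 0.15, adjusted p = 0.00131) and 0.49 (SE 0.13, adjusted p = 0.00162) on the log2 scale. CGAS, the sensor of cytosolic DNA, fell in MDA-MB-231 (−1.14, SE 0.20, adjusted p = 1.40e-05). It also fell in MDA-MB-453 (−1.95, SE 0.60, adjusted p = 0.00804), where its level was under the 5 CPM set for naming genes. Fulvestrant alone gave −1.21 there without passing (SE 0.55, adjusted p = 0.308). STING1, the partner of CGAS, rose in MDA-MB-231 (1.16, SE 0.28, adjusted p = 0.00128). IKBKB, the catalytic IKK subunit, rose in MDA-MB-453 by 0.76 under abemaciclib (SE 0.30, adjusted p = 0.0415), a call that DESeq2 and 4 other settings ended (adjusted p = 0.0546 to 0.370), and by 1.57 with both drugs (SE 0.29, adjusted p = 1.84e-05). With both drugs, 17.6% of all genes in MDA-MB-453 passed as higher and 20% as lower.

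**Figure D4:**
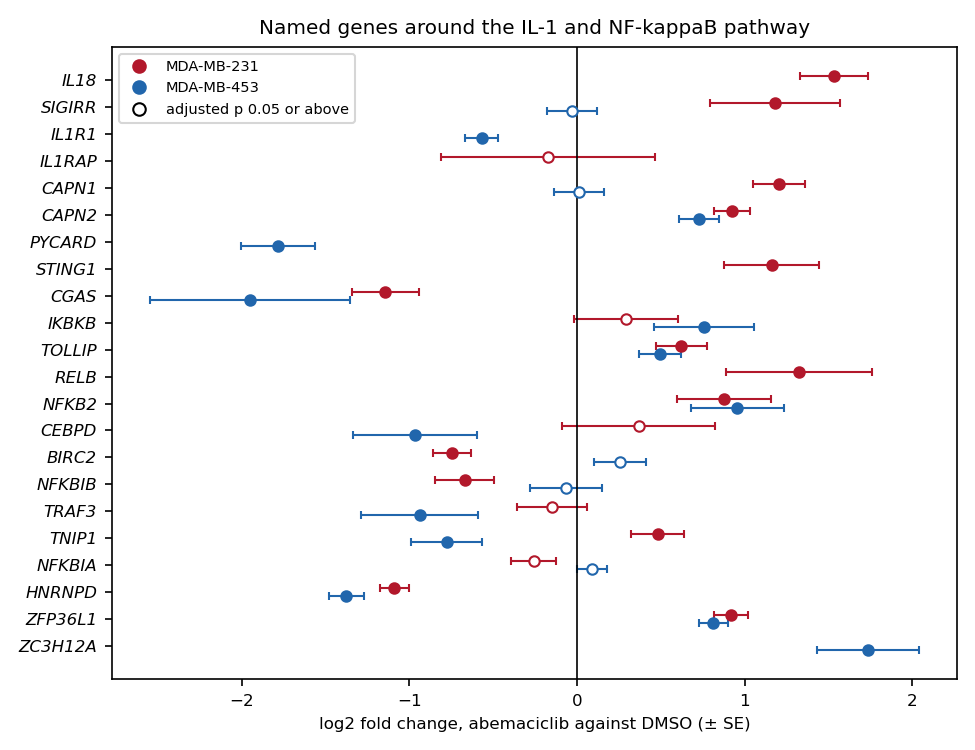
log2 fold change of abemaciclib against DMSO with its SE for the named receptors, maturation, signalling, NF-κB and decay genes in each line; filled points passed the test at an adjusted p of 0.05. NFKB2, TOLLIP, CAPN2 and ZFP36L1 lie to the right of 0 in both lines, HNRNPD and CGAS to the left in both, and NFKBIA is open in both.

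Of the NF-κB subunits and partner factors, 8 were tested in MDA-MB-231, of which 2 rose and 1 fell, and 7 in MDA-MB-453, of which 1 rose and 3 fell. Over all genes 33.7% and 36% passed, so the MDA-MB-231 count is near the background. The subunit gene NFKB1 fell in both lines under abemaciclib. In MDA-MB-231 it went from 50.8 ± 1.60 to 28.8 ± 1.46 CPM (log2 fold change −0.82, SE 0.16, adjusted p = 0.000106). In MDA-MB-453 the change was −0.44 (SE 0.17, adjusted p = 0.0444, close to the threshold). BCL3 also fell in MDA-MB-453 (−0.39, SE 0.14, adjusted p = 0.0266). NFKB1 and BCL3 are named after their values were seen. NFKB2, the p100 precursor of the non-canonical pathway, rose in both lines under abemaciclib, from 12.2 ± 3.64 to 22.3 ± 8.22 CPM in MDA-MB-231 (log2 fold change 0.88, SE 0.28, adjusted p = 0.0129) and from 10.4 ± 2.22 to 19.1 ± 5.87 CPM in MDA-MB-453 (0.96, SE 0.28, adjusted p = 0.00519). In MDA-MB-231, omitting DMSO replicate 1 or abemaciclib replicate 1 ended the call (adjusted p = 0.0859 to 0.133), and so did, in MDA-MB-453, omitting abemaciclib replicate 2 (0.0713). Its partner RELB rose in MDA-MB-231 (1.32, SE 0.44, adjusted p = 0.016), but 3 of the 6 single-library omissions ended that call (0.0522 to 0.106). CEBPD fell in MDA-MB-453 under abemaciclib (−0.97, SE 0.37, adjusted p = 0.0353), a call lost in 8 settings (0.0501 to 0.0926) and not seen with both drugs (−0.03, SE 0.34, adjusted p = 0.956).

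The inhibitors of NF-κB signalling, some of which NF-κB itself induces, gave no common direction. Under abemaciclib 1 of 10 rose and 2 fell in MDA-MB-231, where 33.7% of all genes passed. None rose and 2 fell in MDA-MB-453, where 36% of all genes passed. NFKBIA, the IκBα inhibitor that NF-κB induces within minutes, was at 97.4 ± 10.4 CPM with DMSO against 81.4 ± 5.46 CPM with abemaciclib in MDA-MB-231 (−0.26, SE 0.13, adjusted p = 0.137) and at 455 ± 14.0 and 456 ± 42.6 CPM in MDA-MB-453 (0.09, SE 0.09, adjusted p = 0.481). Between the untreated lines it was higher in MDA-MB-453 by 2.29 on the log2 scale (SE 0.11, adjusted p = 4.30e-23). TNFAIP3, the A20 inhibitor, was below the filter. In MDA-MB-231 the 3 libraries of a group together held 9 counts with DMSO, 27 with abemaciclib, 16 with fulvestrant and 12 with both drugs. In MDA-MB-453 the groups held 0, 2, 0 and 3 in the same order. BIRC2, a ligase that restrains the non-canonical pathway, fell in MDA-MB-231 (−0.75, SE 0.11, adjusted p = 1.17e-06), and so did NFKBIB (−0.67, SE 0.18, adjusted p = 0.00259). TRAF3, which acts with BIRC2, fell in MDA-MB-453 (−0.94, SE 0.35, adjusted p = 0.0303), but 5 settings ended that call (0.0587 to 0.255). TNIP1, the A20 partner, fell in MDA-MB-453 (−0.78, SE 0.21, adjusted p = 0.00327).

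The list of AU-rich element binding and decay proteins, which is not made of decay factors alone, was mostly above the filter. In MDA-MB-231, 1 of 10 rose and 4 fell under abemaciclib (median −0.48), and in MDA-MB-453, 3 of 11 rose and 3 fell (median −0.09). Of all genes, 16.9% rose and 16.9% fell in MDA-MB-231, and 16.6% rose and 19.4% fell in MDA-MB-453. ELAVL1 was among those that fell in both lines (−0.58, SE 0.12, adjusted p = 0.000109, and −0.66, SE 0.12, adjusted p = 2.43e-05). TIAL1 was among those that fell in MDA-MB-453 (−0.53, SE 0.13, adjusted p = 0.000955). Neither is a decay factor, and both are named after their values were seen. ZFP36L1, which binds AU-rich elements and triggers decay, rose from 371 ± 19.1 to 702 ± 99.3 CPM in MDA-MB-231 (log2 fold change 0.92, SE 0.10, adjusted p = 7.78e-10) and from 753 ± 22.4 to 1246 ± 150 CPM in MDA-MB-453 (0.81, SE 0.09, adjusted p = 1.38e-10). ZFP36L2, of the same family, fell in MDA-MB-231 (−0.91, SE 0.19, adjusted p = 0.000147) and rose in MDA-MB-453 (0.74, SE 0.10, adjusted p = 6.26e-08). It is named after its values were seen. HNRNPD, the AUF1 protein that also binds these elements, fell from 635 ± 9.97 to 298 ± 11.2 CPM (−1.09, SE 0.09, adjusted p = 1.78e-13) and from 335 ± 16.0 to 122 ± 17.4 CPM (−1.38, SE 0.10, adjusted p = 3.79e-15). ZC3H12A, the regnase-1 nuclease that cleaves cytokine messages, rose in MDA-MB-453 from 5.34 ± 2.08 to 16.8 ± 7.20 CPM (1.74, SE 0.30, adjusted p = 8.12e-06) and reached 46.2 ± 3.89 CPM with both drugs (3.10, SE 0.29, adjusted p = 2.32e-12).

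Other secreted and surface proteins of the secretory phenotype that arrested or senescent cells can adopt were measured more often. Of 34 such genes 22 were tested in MDA-MB-231, of which 14 rose and 2 fell under abemaciclib (median 0.78) and 13 rose and 2 fell with both drugs (median 0.60), beside medians of 0.00 and −0.01 over all genes, of which 16.9% rose and 16.9% fell under abemaciclib and 17% rose and 18.3% fell with both drugs. IGFBP4, which binds insulin-like growth factors, rose from 313 ± 11.3 to 1228 ± 71.5 CPM (log2 fold change 1.97, SE 0.09, adjusted p = 2.17e-20), and PLAT, tissue plasminogen activator, from 7.29 ± 1.5 to 26.9 ± 0.526 CPM (1.88, SE 0.26, adjusted p = 1.59e-07). In MDA-MB-453, 11 were tested, and 4 rose and 4 fell under abemaciclib (median 0.36), beside 16.6% of all genes higher and 19.4% lower. MIF, a cytokine that inhibits macrophage migration, fell from 157 ± 41.6 to 43.9 ± 26.4 CPM (−1.76, SE 0.32, adjusted p = 1.75e-05 by edgeR and 0.0677 by DESeq2), and STC1, a secreted glycoprotein, from 13.5 ± 1.78 to 4.56 ± 1.92 CPM (−1.47, SE 0.37, adjusted p = 0.00132). The lists were chosen with earlier results of these samples known, so their counts are a description.

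**Figure D5:**
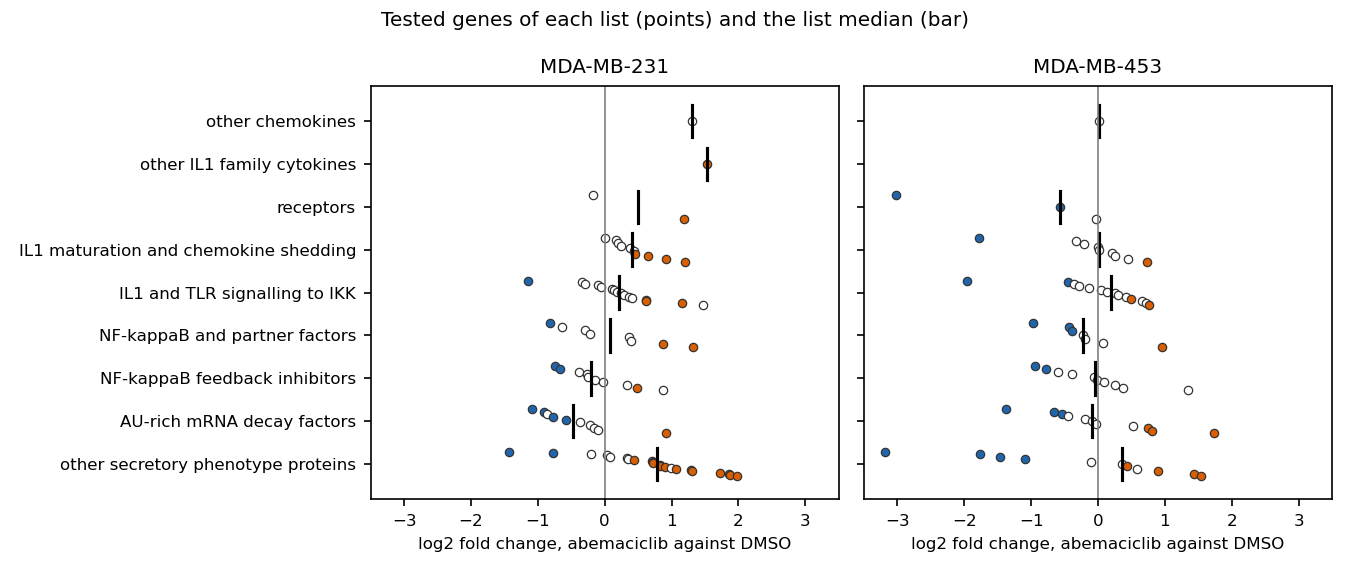
log2 fold change of abemaciclib against DMSO for each tested gene of the 9 lists (points; orange, higher; blue, lower; open, not passed) with the list median (bar) in each line. Chemokine, receptor and interleukin-1 family lists hold 0 to 3 tested genes, and the secretory protein list has its median at 0.78 in MDA-MB-231 against 0.36 in MDA-MB-453.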

How the data were processed

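Raw gene counts were deposited for 24 libraries (3 per group); the authors trimmed the 3′ reads (QuantSeq FWD), aligned them with STAR to hg38 and counted reads per GENCODE gene with featureCounts, tools that the submitters' notes also name. Strand and multiple-match settings are not given in the sources used here. Nothing was normalized before deposit. The 10 genes and all lists were chosen with earlier results of these data known. Levels are CPM, deposited counts scaled to the library total. Differences were tested with edgeR 4.0.16 (R 4.3.3; quasi-likelihood test, TMM scaling, filterByExpr, minimum count 10) within each line on 12 libraries, or on 24 between lines, with Benjamini-Hochberg adjustment over all genes; adjusted p below 0.05 passed. DESeq2 1.42.0 and the other alternatives of the closing section were run on the same counts. The tests were checked on simulated data for genes above the low-count filter, which covers no mediator but CXCL16 in MDA-MB-453. Named beside the 10 were NFKBIA, TNFAIP3, IL1R1, IL1RAP, IL1RN, CXCR2 and, per list and line, up to 2 genes of at least 5 CPM with the largest change that passed under abemaciclib. All 24 replicate pairs differed by more than sampling noise (chi-square per degree of freedom 2.64 to 8.65). Replicates are labelled biological; what separated them is not labelled. Replicate numbers did not pair the libraries. 1 row named no gene and held 0 counts. Immune and stromal marker lists were summed per library.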

Additional observations from a re-analysis of the deposited data

Results flagged for a closer look

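No group had enough libraries for a test of single outlying samples. Of the 10 mediators CXCL16 alone entered the main test for a different response to abemaciclib in the lines, on too few MDA-MB-231 counts to compare. Of the named genes around them 8 differed, by the test of the difference itself (edgeR, MDA-MB-453 effect minus MDA-MB-231 effect, log2 scale, over 24 libraries). The response was lower in MDA-MB-453 for IGFBP4 (−5.15, SE 0.41, adjusted p = 2.53e-14; 1.97 in MDA-MB-231 against −3.18 in MDA-MB-453) and STC1 (−3.18, SE 0.38, adjusted p = 8.19e-09; 1.73 and −1.47), which moved in opposite directions in the 2 lines. TNIP1 did so too (−1.25, SE 0.26, adjusted p = 0.000284; 0.48 and −0.78), but its rise in MDA-MB-231 was no longer called in 3 single-library omissions (without DMSO replicate 2, abemaciclib replicate 1 or abemaciclib replicate 2, adjusted p = 0.0704 to 0.0768). The response was also lower for CAPN1 (−1.18, SE 0.21, adjusted p = 3.23e-05; 1.21 and 0.01). For BIRC2 it was higher (1.01, SE 0.19, adjusted p = 7.71e-05; −0.75 and 0.26). For SIGIRR (−1.20, SE 0.36, adjusted p = 0.0117) the call was lost without MDA-MB-231 abemaciclib replicate 2 (0.0622), and for IL1R1 (−1.77, SE 0.52, adjusted p = 0.0103), which had 11 counts in the MDA-MB-231 DMSO group, without MDA-MB-231 DMSO replicate 1 (0.058). For MIF (−1.78, SE 0.64, adjusted p = 0.039) DESeq2, the replicate block and 6 single-library omissions ended the call (0.0536 to 0.351). No cause of these differences was tested.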

How the results depend on the processing

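The count of mediators that passed was recomputed 125 times over 10 comparisons and moved in 5. In MDA-MB-231 it went from 0 to 1, CXCL8, with DESeq2 and with no low-count filter, for abemaciclib and for the combination against DMSO, because the main filter tests none of the 10; between the DMSO groups it went from 1 to 2 with no filter, by the addition of CXCL3. Under single-library omissions it stayed at 0 to 0, or 1 to 1 between the lines. With the replicate number as a replicate block the count was 0 in each comparison fitted, and same-numbered libraries did not deviate together (correlations −0.0923 to 0.0446 for MDA-MB-231, and for MDA-MB-453 −0.0647 to 0.0435); genes passing for abemaciclib fell from 3815 to 3672 and from 3987 to 3882. Counts over all genes that moved most were those of the combination against abemaciclib in MDA-MB-231 (3, against 75 with DESeq2, 49 with no filter and 30 with only the groups compared) and of fulvestrant in MDA-MB-453 (156, against 334 with DESeq2 and 269 with no filter). Settings chosen after seeing the data combined the unfiltered test with omissions or the block: the adjusted p of CXCL8 was 0.0653 and 0.0567 with the block. Signs turned where the value was near 0: over single-library omissions CXCL16 in MDA-MB-453 ranged from −0.23 to 0.21 for abemaciclib, from −0.41 to 0.031 for the combination and from −0.37 to 0.045 for the combination against abemaciclib. In the same line CEBPD ranged from −0.25 to 0.22 (combination), SIGIRR from −0.075 to 0.047 and CAPN1 from −0.15 to 0.14 (abemaciclib). In MDA-MB-231 IL1RAP ranged from −1.39 to 0.20 and MIF from −0.56 to 0.60, and the replicate block gave MIF −0.11. The cause was not tested. Of 1031 refitted log2 changes 940 kept their sign and side of the threshold, 72 lost the call, 5 gained it and 14 turned. All 31 levels moved by less than 1 SD on the TMM scale. Depth limits 9 of the 10 mediators: a group cannot show levels under 0.255 to 0.300 CPM.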
